A study of Cyprinus carpio with 18 samples.

Results

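The microRNAs of families 23, 24 and 27 were followed through the development of the common carp (Cyprinus carpio). They were taken by name, as every carp microRNA (prefix ccr-) whose family number is 23, 24 or 27, with any letter or arm. This gave 7 of the 2888 microRNAs counted: ccr-miR-23a, ccr-miR-23b, ccr-miR-24, ccr-miR-27a, ccr-miR-27c-3p, ccr-miR-27c-5p and ccr-miR-27d, written here without the prefix. They belong to the 146 microRNAs counted under a carp name, while the other 2742 were predicted ones listed by sequence. Small RNA was sequenced from whole embryos and larvae of wild type FFRC No.2 carp, a selected farmed strain, spawned naturally, in 18 libraries. There were 3 libraries for each of 6 stages. Counted in hours from fertilization these were cleavage at 2 h, blastocyst at 6 h, gastrulation at 12 h, organ formation at 20 h and hatching at 64 h, and the larvae were taken 1 day after hatching. The labels give no treatment and no genotype other than wild type, and they say that RNA of a stage was pooled in equal amounts, so a library does not stand for a single embryo.

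MicroRNAs are short RNAs that pair, mainly through a few bases near their 5′ end called the seed, with messenger RNAs and lower their output. In vertebrates, genes of the miR-23, miR-27 and miR-24 families lie side by side and are copied as a single primary transcript, which is then cut into the separate microRNAs, and several such clusters exist per genome. Members of a family share the seed, so that miR-27a, miR-27c-3p and miR-27d can read much the same targets. In mice and humans, miR-23 and miR-27 act in blood vessel growth and miR-24 in endothelial cells. In zebrafish, miR-27 takes part in the formation of pharyngeal cartilage, and in mouse muscle miR-27 lowers Pax3 in cells leaving the progenitor state. The suffixes 3p and 5p name both arms of a hairpin precursor, of which usually a single arm is kept. The sources used here do not give which carp members share a transcript, their positions or their mature sequences. They do not say either how a read that matches more than a single member of a family was assigned, so the split between miR-27a, miR-27c-3p and miR-27d and between miR-23a and miR-23b is uncertain.

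Depth set how firmly each stage can be read. Total counts were 60779 to 438398 per library in the 4 earlier stages and 4964459 to 8427601 at hatching and in the larva. Levels are therefore given as CPM, counts brought to a common library size, after scaling with TMM (trimmed mean of M values) factors, which ran from 0.196 to 2.19. Whole embryos were sequenced, so fewer cells that hold a microRNA and less of it per cell cannot be told apart. A microRNA called different passed edgeR's quasi-likelihood test at a Benjamini-Hochberg adjusted p under 0.05. Of the 7 members, 6 were abundant enough to test, among 328 microRNAs tested, and miR-27c-5p was not.

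The members were a small part of each library, and the balance among them shifted during development. Together they took 1.62% ± 1.32 of the counts in cleavage libraries, 0.196% ± 0.105 in those of the blastocyst and 0.447% ± 0.370 in those of gastrulation (SD over 3 libraries). Their summed share was 0.940% ± 0.368 in organ formation libraries, 1.36% ± 0.207 around hatching and 1.82% ± 0.0903 for larvae (SD over 3 libraries). These shares depend on what else was in the library. In the first 3 stages miR-430 and miR-738 held between 37.7% and 93.9% of a library's counts, and at organ formation 40.1% to 57.4%. At hatching and in the larva they held 0.488% to 6.90%. With both left out of the total, the members' summed share averaged 3.31%, 1.51%, 2.12%, 1.77%, 1.45% and 1.85% from cleavage to larva in order. The blastocyst libraries thus stood much nearer to the others. The cleavage libraries then held 5.02%, 2.05% and 2.85% and overlapped with the gastrulation libraries, at 1.25%, 1.98% and 3.13%.

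Among the 7 members, miR-27d was the most counted at every stage. It held 45.7% ± 1.42 of the members' counts in cleavage embryos, 58.4% ± 4.92 in blastocysts, 53.7% ± 5.49 in gastrulation embryos and 72.0% ± 5.81 during organ formation (SD over 3 libraries). Its share reached 82.3% ± 2.19 with hatching and was 78.2% ± 5.71 for larvae (SD over 3 libraries). The lowest of the 6 late libraries, at 71.8%, lay above the highest cleavage library, at 47.3%. The share of miR-23a went from 13.9% at cleavage to 2.63% with hatching and 3.29% for larvae, that of miR-24 from 12.8% to 2.96% and 4.43%, and that of miR-27a from 11.5% to 1.66% and 3.13%. The share of miR-27c-3p averaged 11.2%, 10.3%, 2.36%, 1.87%, 4.02% and 4.56% over the 6 stages in order. It was uneven early, at 3.53%, 19.9% and 10.3% in the cleavage libraries and 14.2%, 4.69% and 11.9% in the blastocyst libraries. The first cleavage library lay under every hatching and larva library, the lowest of which had 3.69%. miR-23b stayed between 4.73% and 8.21% in the 6 stage means. Adapter ligation can favour some sequences over others, so these shares are of counts and not of molecules.

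**Figure D1:**
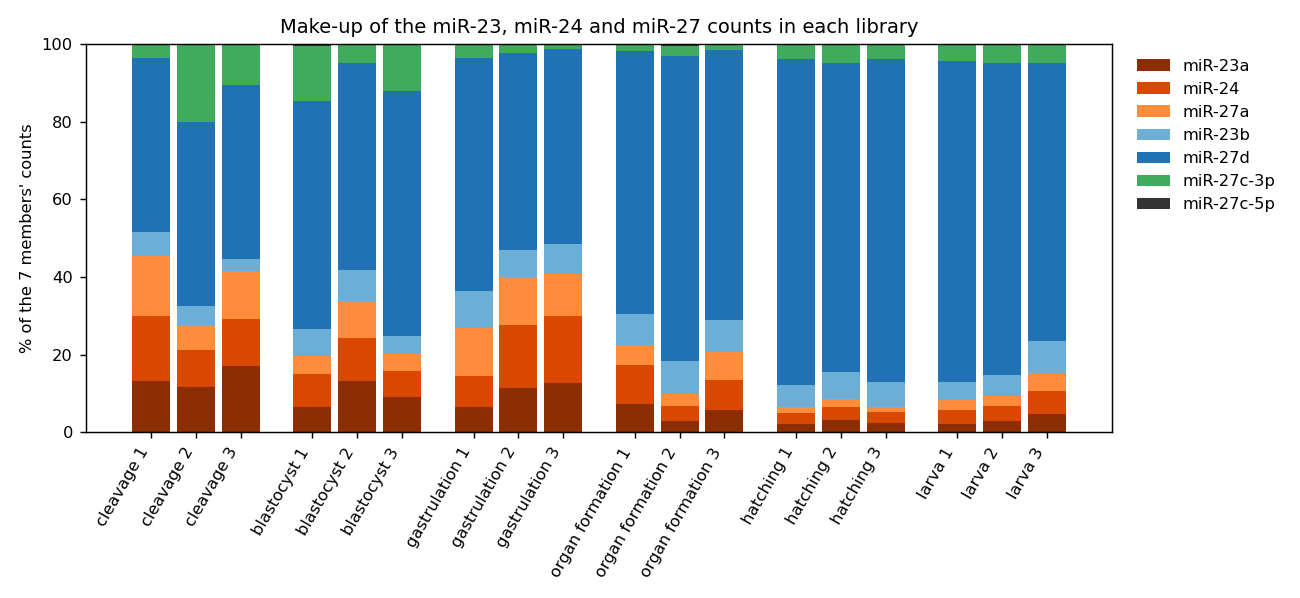
Each bar is a library and divides the counts of the 7 members (vertical axis, % of their sum) by member. miR-27d takes 45.7% of them on average at cleavage and 82.3% at hatching, while miR-23a, miR-24 and miR-27a together shrink.

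Ranked among the 146 named microRNAs by mean share of the library, miR-27d stood between 17th and 25th at every stage. miR-24 went from rank 34 at cleavage to 72 at hatching, miR-23a from 38 to 76 and miR-27a from 39 to 85. miR-27c-3p moved from rank 50 at cleavage to 85 at organ formation and back to 60 in the larva. miR-23b kept between ranks 53 and 66, and miR-27c-5p between 117 and 131. In the order of the levels within a stage, miR-27d stood above all others without overlap at every stage except cleavage, where its lowest library (2269) lay under the highest of miR-24 (3302), miR-27a (3055) and miR-23a (2600). In the larva the order by mean TMM-scaled CPM was miR-27d (8121), miR-23b (635), miR-27c-3p (470), miR-24 (452), miR-23a (334) and miR-27a (320). The ranges of neighbours in that order overlapped from miR-27c-3p to miR-27a, and also between miR-24 and miR-23b.

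Few members passed the test from a stage to the next. From cleavage to blastocyst none of the 6 tested members was called, where 6.10% of all tested microRNAs were called higher and 1.52% lower. At an unadjusted p under 0.05 there were 2, miR-24 and miR-27a, and DESeq2 called 0. From blastocyst to gastrulation 1 member, miR-27c-3p, was called lower and none higher, against 3.96% lower and 3.05% higher of all tested. From gastrulation to organ formation none was called, against 1.83% higher and 4.27% lower (1 unadjusted, miR-23a, and 0 by DESeq2). From organ formation to hatching 1 member, again miR-27c-3p, was called higher and none lower, against 18.3% higher and 8.84% lower. From hatching to larva none was called, against 0% higher and 0.305% lower (0 unadjusted, and 0 by DESeq2).

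Between the ends of the series, larva against cleavage, 3 of the 6 tested members were called lower and none higher. Of all tested microRNAs, 31.1% were called higher and 29.9% lower. The 3 were miR-23a, miR-24 and miR-27a. In the test of any difference among the 6 stages, 4 of 6 members passed against 75.3% of all tested microRNAs, namely miR-27c-3p (adjusted p = 0.000120), miR-27a (0.0125), miR-23a (0.0143) and miR-24 (0.0290), in edgeR's quasi-likelihood test. miR-27d (adjusted p = 0.0895) and miR-23b (adjusted p = 0.887) did not pass it. The median log2 fold change of the 6 members was −1.29 for larva against cleavage, where that of all 328 was 0.15. For the steps in between, the medians of the members and of all tested were −0.99 and 0 at blastocyst, 0.53 and 0 for gastrulation, −0.94 and −0.31 for organ formation, 0.03 and 0.87 for hatching, and 0.41 and −0.16 for larvae. The members are all named microRNAs, and the median of the 127 named ones tested was 0.74 for larva against cleavage. For the steps in between it was −0.26, 0.27, −0.54, 0.83 and −0.085 in order. With each library scaled by its total count instead, all 6 tested members were called lower at blastocyst than at cleavage. The median of all tested microRNAs then stood at −1.97, and the members' distances from it ran from −1.97 (miR-27a) to −0.73 (miR-27d). Of all tested microRNAs, 12 were called higher and 98 lower instead of 20 and 5. Over the other scalings, the share of higher ones among all microRNAs called was 31.8% to 65.0% at gastrulation against 43.5% with TMM, 36.4% to 89.3% at organ formation against 30.0%, and 45.6% to 61.7% at hatching against 67.4%.

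**Figure D2:**
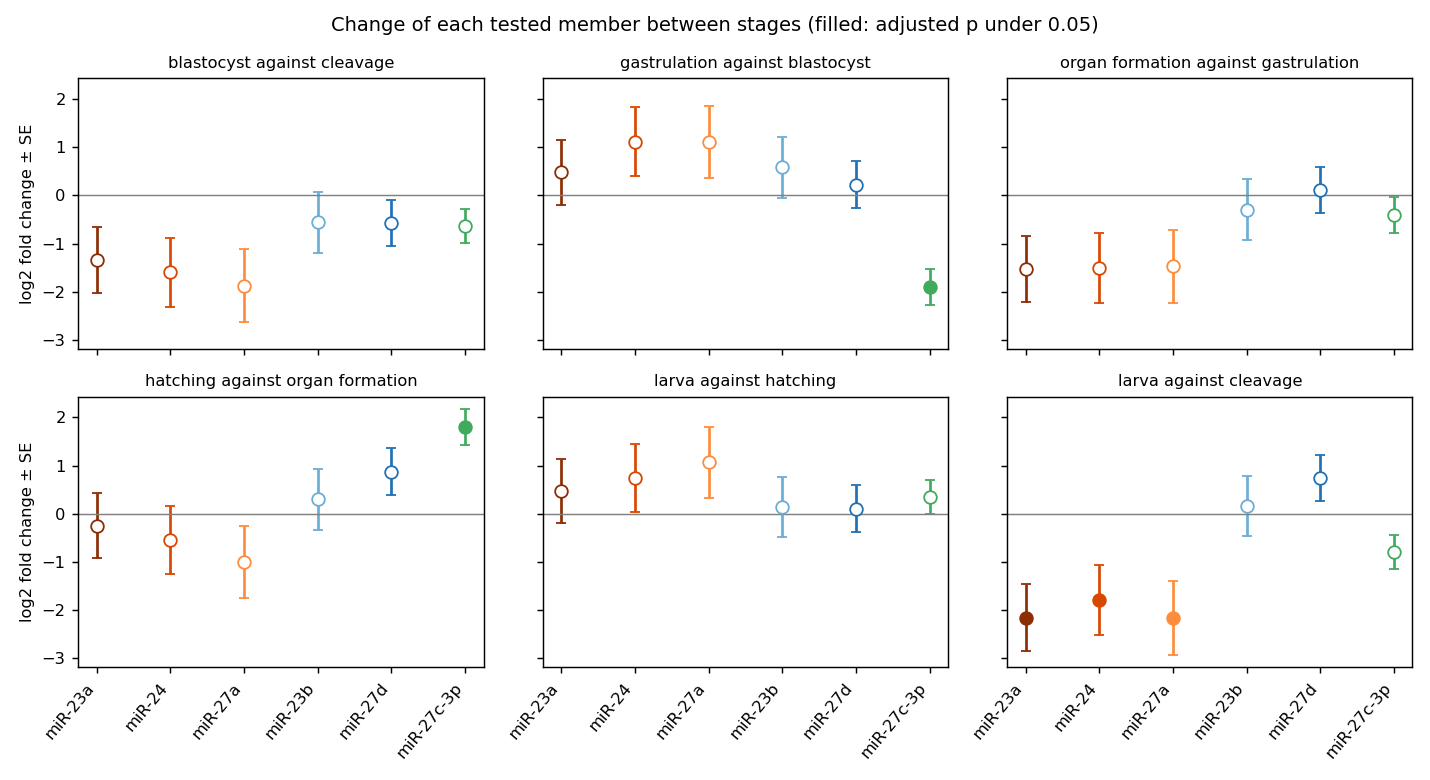
Each panel is a stage comparison and each point a tested member's log2 fold change with its standard error, filled where the adjusted p was under 0.05. The filled points are miR-27c-3p, low at gastrulation (−1.90) and high at hatching (1.80), and miR-23a, miR-24 and miR-27a, low in larva against cleavage.

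miR-23a, miR-24 and miR-27a, of 3 different families, had a like course: highest on average at cleavage, variable through organ formation and lowest on average around hatching. miR-23a stood at 2600, 556 and 1303 TMM-scaled CPM in the 3 cleavage libraries, at 283, 1033 and 448 in the blastocyst ones, and at 273, 669 and 1506 in those of gastrulation. Organ formation libraries held 242, 166 and 441, hatching libraries 212, 299 and 209, and larva libraries 249, 290 and 462. The larva libraries all lay under the cleavage libraries, and so did the organ formation libraries, while blastocyst and gastrulation overlapped with both cleavage and larva. From cleavage to larva miR-23a fell by 2.16 in log2 units (SE 0.70, edgeR quasi-likelihood adjusted p = 0.0151), from a mean of 1486 ± 1034 to 334 ± 113 (SD, n = 3 each).

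miR-24, the single member of its family here, had 3302, 454.8 and 935 TMM-scaled CPM in cleavage libraries, 366, 854 and 329 in blastocyst libraries, and 332, 957 and 2049 in gastrulation libraries. It had 332, 243 and 602 during organ formation, 264.5, 306 and 244 around hatching, and 402, 384 and 570 in larvae. It fell by 1.79 from cleavage to larva (SE 0.72, adjusted p = 0.0437, edgeR), but the highest larva library (570) lay above the lowest cleavage library (454.8). The 3 hatching libraries lay under all 3 cleavage and all 3 larva libraries, and larva against hatching did not pass (log2 fold change 0.74, SE 0.71, adjusted p = 0.711).

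miR-27a had 3055, 314 and 946 TMM-scaled CPM in cleavage libraries, 200.5, 753 and 221.4 in those of the blastocyst, and 527, 726 and 1274 in those of gastrulation. Its levels were 173, 177 and 557 during organ formation, 158, 175 and 124.3 around hatching, and 282, 270 and 407 in larvae. Cleavage and larva overlapped, with 407 in the highest larva library and 314 in the lowest cleavage library. From cleavage to larva miR-27a fell by 2.17 (SE 0.76, adjusted p = 0.0229, edgeR), and from hatching to larva its libraries did not overlap, with a log2 fold change of 1.07 that missed the threshold (SE 0.74, adjusted p = 0.614).

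The cleavage means of miR-23a, miR-24 and miR-27a rest in part on the first cleavage library, the highest for each. Without it, miR-23a still fell from cleavage to larva, while miR-24 (−1.03) and miR-27a (−1.36) no longer passed. Without the first larva library none of the 3 passed (−1.98, −1.71 and −2.09), and without the second miR-24 (−1.69) and miR-27a (−2.06) did not. The call of miR-24 was also lost without the third larva library (−1.99) and, at an unchanged value of −1.79, without the second gastrulation, the first organ formation or any single hatching library. Under library totals none of the 3 passed either. Relative to the median of all tested microRNAs, the fall over 5 ways of scaling was −2.37 to −2.16 for miR-23a. It was −2.001 to −1.85 for miR-24 and −2.37 to −2.20 for miR-27a. A change of scaling moves all microRNAs of a library alike, so these narrow ranges were largely fixed in advance. They are no separate support, and the distance from the median was not tested.

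**Figure D3:**
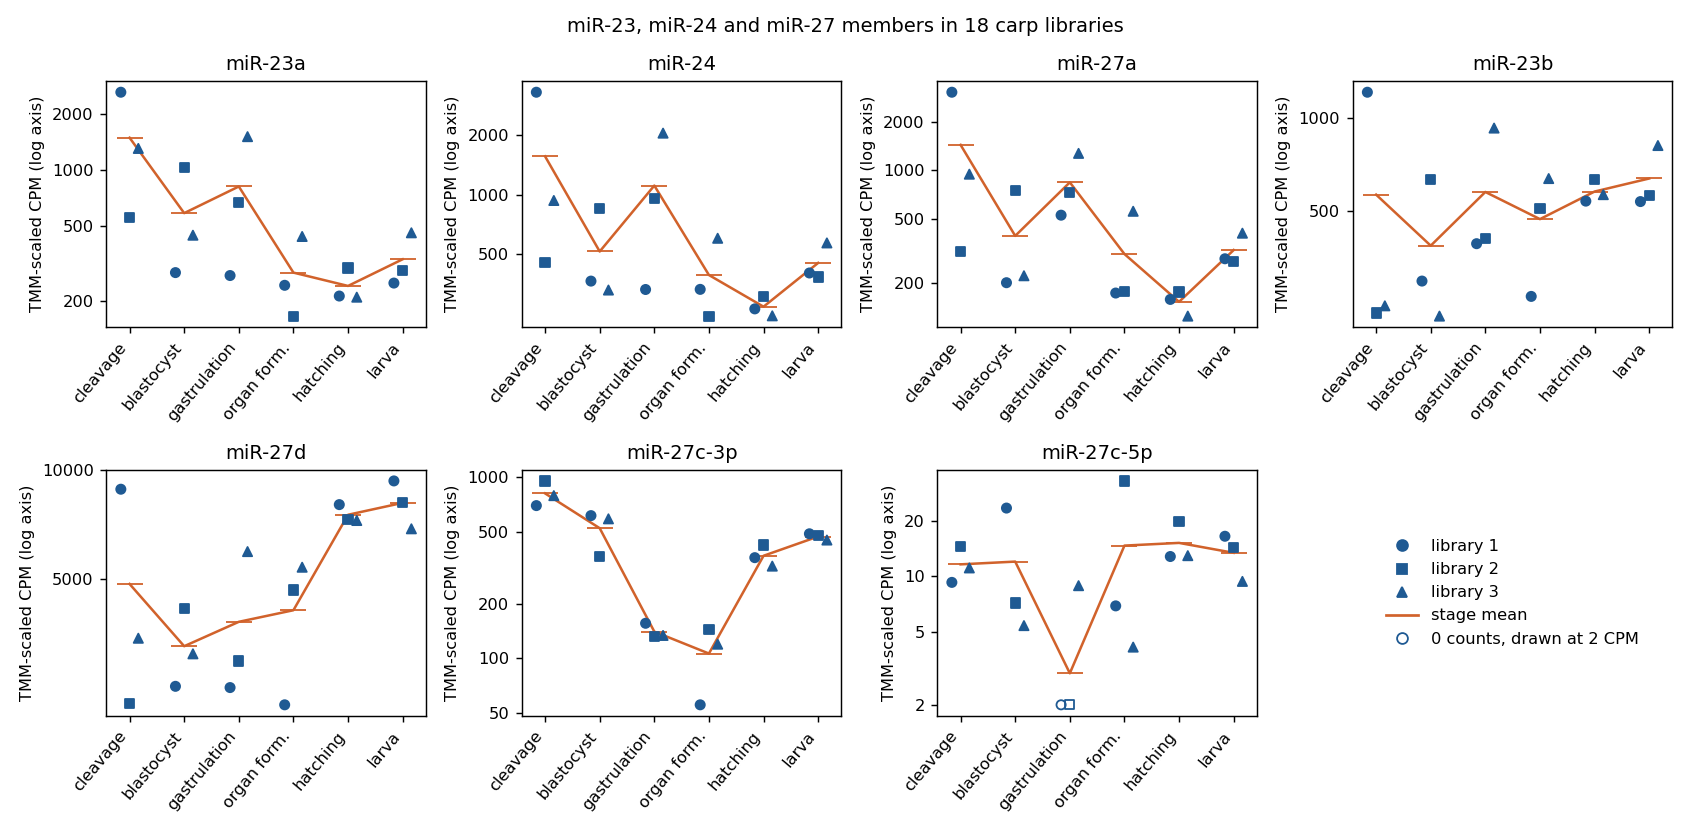
Each panel is a member, with the level of each library (TMM-scaled CPM, log axis) as a point and the stage means joined by a line. miR-23a, miR-24 and miR-27a are lowest on average at hatching, miR-27d is highest at hatching and in the larva, and miR-27c-3p dips at gastrulation (140) and organ formation (106).

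miR-27d and miR-23b did not share this course. Cleavage libraries held 8855, 2269 and 3440 TMM-scaled CPM of miR-27d, blastocyst libraries 2536, 4160 and 3116, and gastrulation libraries 2516, 2978 and 5961. Organ formation libraries held 2255, 4675 and 5398, hatching libraries 8031, 7298 and 7260, and larva libraries 9334, 8140 and 6888. All 6 late libraries lay above all 9 libraries from blastocyst to organ formation, while the first cleavage library was as high as the late ones. The log2 fold change from organ formation to hatching was 0.87, equal to the median of all tested microRNAs, and did not pass (SE 0.48, adjusted p = 0.203, edgeR).

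For miR-23b the cleavage libraries held 1212, 232 and 245 TMM-scaled CPM, the blastocyst libraries 295, 631 and 227, and the gastrulation libraries 390, 407 and 927. The organ formation libraries held 263, 508 and 635, the hatching libraries 536, 629 and 563, and the larva libraries 535, 558.5 and 813. The range of every stage overlapped with that of every other. No comparison passed for miR-23b, and the log2 fold change from cleavage to larva was 0.17 (SE 0.62, adjusted p = 0.859, edgeR).

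miR-27c-3p was the member with the clearest stage pattern. Its cleavage libraries held 697, 953 and 790 TMM-scaled CPM, its blastocyst libraries 613, 366 and 589, and its gastrulation libraries 156, 131 and 134. In the organ formation libraries it had 55.3, 143.7 and 120, in the hatching libraries 359, 422 and 323, and in the larva libraries 487, 474 and 449. The gastrulation and organ formation libraries all lay under every library of the other 4 stages, and the stages on either side did not overlap with them. From blastocyst to gastrulation miR-27c-3p fell by 1.90 in log2 units (SE 0.38, edgeR adjusted p = 0.00652), from 523 ± 136 to 140 ± 13.6 (SD, n = 3 each).

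From organ formation to hatching miR-27c-3p rose by 1.80 (SE 0.37, adjusted p = 0.00369, edgeR), from 106 ± 45.7 to 368 ± 50.3 (SD, n = 3 each). The median of all tested microRNAs moved by 0.87 in that step with TMM. Relative to the median, miR-27c-3p stood 0.91 to 0.96 higher over 5 ways of scaling. Scaling hardly changes such a distance, so its narrow range is no separate support, and it was not tested. With RLE size factors the log2 fold change of miR-27c-3p was 1.011 and no longer passed. At gastrulation the corresponding distance from the median was −2.16 to −1.70, and with library totals the fold change of −1.18 did not pass. Cleavage and larva did not overlap, with all 3 larva libraries lower, but the difference missed the threshold (log2 fold change −0.79, SE 0.36, adjusted p = 0.0665). It passed without the first cleavage library (−1.38), the first blastocyst library (−1.30) or the first organ formation library (−0.79). Of 12 other settings it passed in 5, namely RLE size factors (−1.08, adjusted p = 0.0244, edgeR), named microRNAs only (−1.40, 0.00876), at least 10 CPM in 3 libraries (−1.20, 0.0148), DESeq2 (−1.08, 0.000820) and the omission of blastocyst libraries 2 and 3 and gastrulation library 2 together (−1.30, 0.00540). With unlisted predicted microRNAs counted as 4 the value was 0.60 and did not pass. The low levels rest on few counts, 8, 21 and 15 in the gastrulation libraries and 8, 13 and 29 in the organ formation libraries, so that their spread is coarse.

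**Figure D4:**
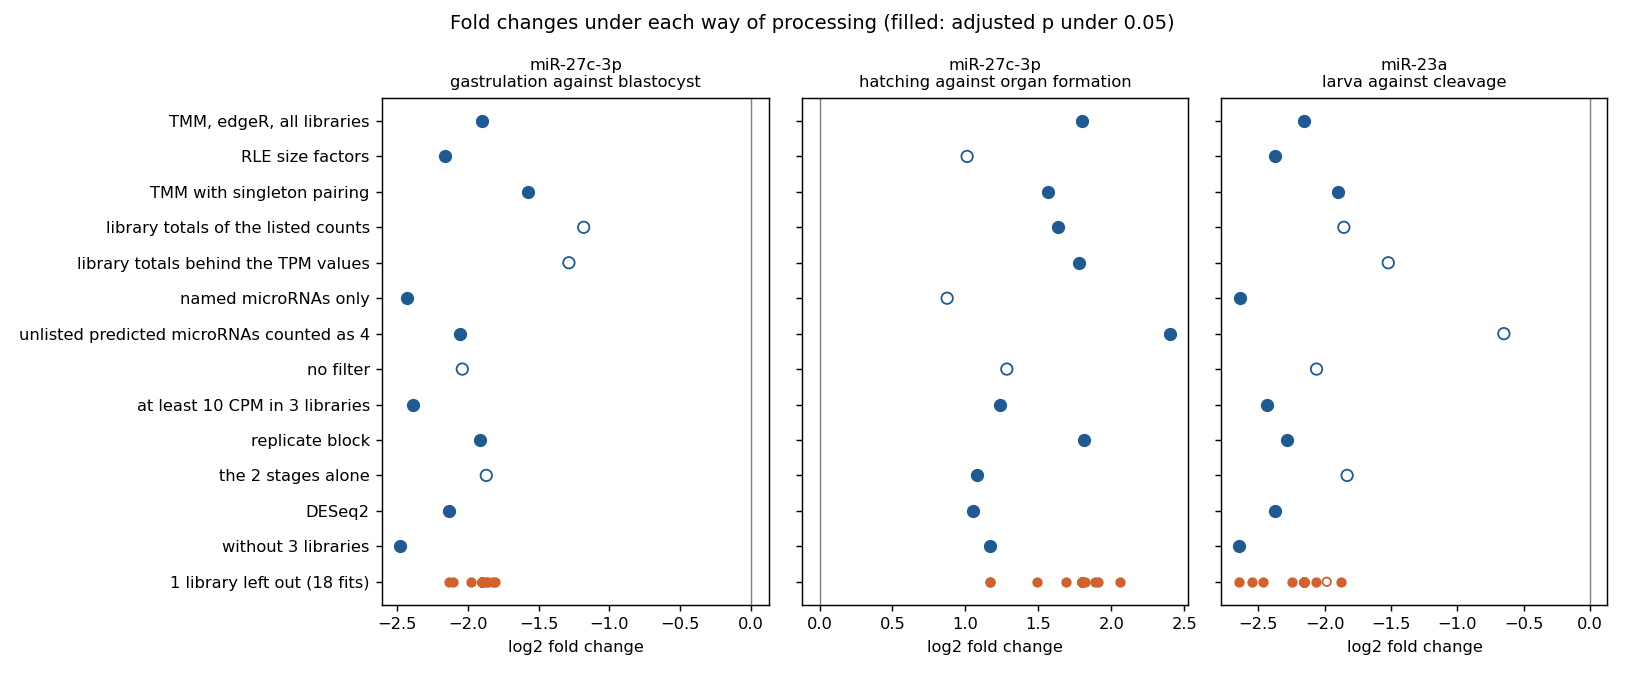
Log2 fold changes of miR-27c-3p at gastrulation and at hatching and of miR-23a in larva against cleavage (horizontal axes) under each way of processing, filled where the adjusted p was under 0.05. All values keep their sign, miR-27c-3p at gastrulation lies between −2.48 and −1.18, and miR-23a lies nearest 0 with unlisted predicted microRNAs counted as 4.

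The other arm of the same precursor, miR-27c-5p, was scarce throughout. It had 2, 3 and 1 counts in the cleavage libraries, 2, 1 and 1 in those of the blastocyst, 0, 0 and 1 in those of gastrulation and 1, 3 and 1 during organ formation. The deep hatching libraries held 136, 123 and 106 counts and the larva libraries 152 to 157. On the TMM-scaled scale the deep late libraries lay between 9.40 and 19.9, and the early libraries with 1 to 3 counts between 4.12 and 33.2, so no stage difference was detectable at this depth. A count of 0 allows up to 3 counts, or 58.5 TMM-scaled CPM in the first gastrulation library and 18.8 in the second, and these limits cover counting error only. Where both arms were well counted, miR-27c-3p exceeded miR-27c-5p by 24.4 times at hatching and 35.8 times in the larva (geometric means, with 0.5 added to both counts), with ratios of 27.9, 21.1 and 24.7 in the hatching libraries and 29.3, 32.8 and 47.7 in the larva libraries.

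The ratio of 2 members within a library needs no scaling factor, and 6 such ratios, between the leading members of each family and within families, were compared across stages with a permutation test of the F ratio (100000 permutations, Benjamini-Hochberg adjusted over the 6). All 6 differed among stages, but they are not 6 separate results. Most have miR-27d in common, and miR-23a, miR-24 and miR-27a moved closely together (Pearson r = 0.917 to 0.951). Ratios within a family also depend on how reads matching both members were assigned, which is not known. Stage means of ratios are geometric, averaged as log2 ratios. In order of development, the ratio of miR-27d to miR-27a averaged 4.22, 9.81, 4.48, 14.7, 49.8 and 25.6 (F = 19.0, permutation p = 8e-05, adjusted p = 0.00048). The hatching libraries (50.9, 41.6 and 58.4) lay above all others, and the larva libraries (33.05, 30.1 and 16.9) above all from cleavage to gastrulation.

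The stage means of miR-27d against miR-23a had the same shape, at 3.32, 6.25, 5.39, 14.5, 31.8 and 25.0 in order of development (F = 14.9, permutation p = 0.00023, adjusted p = 0.00048). Here the hatching libraries (37.8, 24.4 and 34.7) overlapped with those of organ formation (up to 27.3) and of the larva (14.9 to 37.5). Against miR-24 the means were 3.65, 6.78, 4.06, 10.4, 27.8 and 18.1 (F = 13.2, permutation p = 0.00032, adjusted p = 0.00048). The latter did not pass within the 12 libraries of the 4 earlier stages alone, while the ratios of miR-27d to miR-23a, to miR-27a and to miR-27c-3p and that of miR-23a to miR-23b did. miR-27d to miR-27c-3p peaked in the middle of the series instead, with means of 5.07, 6.25, 24.4, 37.7, 20.6 and 17.1 (F = 8.45, permutation p = 0.00227, adjusted p = 0.00272).

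Within family 23 the balance of counts turned over, with the assignment of reads that match both members unknown. miR-23a exceeded miR-23b 2.99 times at cleavage, with 2.14, 2.38 and 5.22 in the libraries, and stood at 1.46 times its level at blastocyst and 1.23 times at gastrulation. At organ formation the ratio was 0.598, at hatching 0.412 (0.396, 0.476 and 0.372) and in the larva 0.516 (0.466, 0.519 and 0.568). All 3 cleavage libraries were above 1 and all 9 libraries from organ formation on were below it (F = 11.3, permutation p = 0.00025, adjusted p = 0.00048).

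miR-23a and miR-24 stayed closest. Their ratio averaged 1.10, 1.08, 0.753, 0.718, 0.877 and 0.724 from cleavage to larva (F = 3.30, permutation p = 0.0438, adjusted p = 0.0438). It passed by little, and it no longer passed in 16 of the 18 fits that left out a single library, the exceptions being the first cleavage library (F = 6.38) and the first blastocyst library (F = 6.26).

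**Figure D5:**
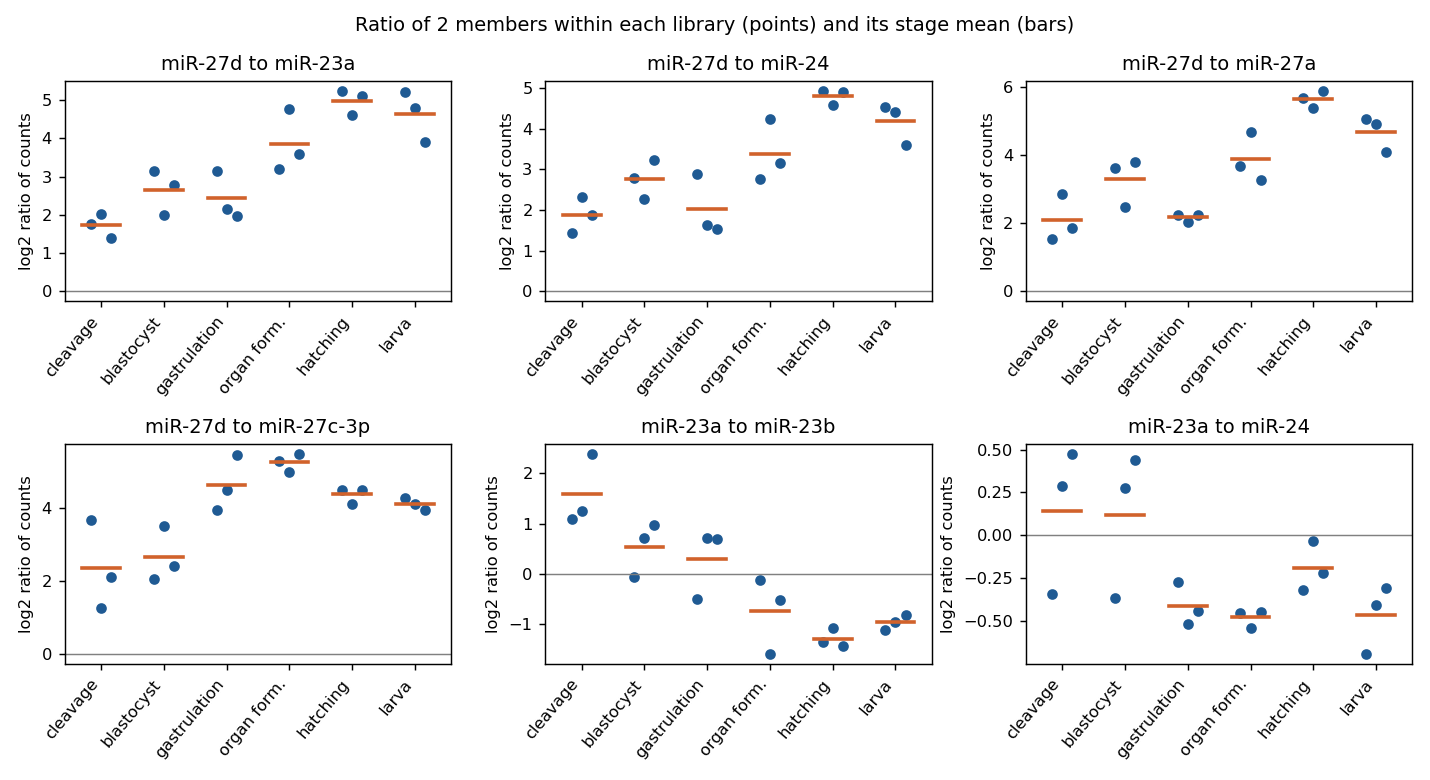
Each panel is a pair of members, each point the log2 ratio of their counts in a library (0.5 added to both) and each bar a stage mean; the vertical scales differ between panels. miR-27d gains on miR-23a, miR-24 and miR-27a towards hatching, miR-27d to miR-27c-3p is highest at organ formation, and miR-23a to miR-24 moves little.

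Over the 18 libraries the tested members fell into sets by how closely they moved together, as a description without a test, since libraries share stage, depth and scaling. The log2 ratio had an SD of 0.353 for miR-23a and miR-24 (Pearson r = 0.949), 0.398 for miR-24 and miR-27a (r = 0.951), 0.488 for miR-23a and miR-27a (r = 0.917) and 0.469 for miR-23b and miR-27d (r = 0.791). All other pairs of tested members had an SD of at least 0.950, up to 1.61 for miR-27a and miR-27c-3p (r = 0.067). Members that share a family number were therefore not the ones that moved most alike: the closest partner of miR-23a was miR-24, and that of miR-23b was miR-27d.

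Among the 127 named microRNAs tested, those most like each member over the 18 libraries were chosen by the correlation of log2 TMM-scaled CPM. After each other, miR-23a, miR-24 and miR-27a were each most like let-7b (r = 0.894, 0.882 and 0.889), of the let-7 family known for developmental timing. let-7b fell by 2.24 from cleavage to larva (adjusted p = 0.0155, edgeR). Because let-7b was chosen for its likeness over these same libraries, that fall is no separate support. miR-27d was most like miR-126-5p (r = 0.883), miR-126-3p (0.870), both arms of an endothelial microRNA, and miR-125b (0.866). miR-23b was most like miR-26a (0.801), then miR-27d and miR-126-5p (0.779). miR-27c-3p was most like miR-22a (0.946), miR-146a (0.917), a microRNA of innate immune signalling, and miR-16b (0.833), of a family that restrains the cell cycle.

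Because miR-22a was chosen for its likeness over these same libraries, steps that it shares with miR-27c-3p are no separate support. miR-22a fell at gastrulation by 1.63 (SE 0.31, adjusted p = 0.00577, edgeR) and rose at hatching by 1.71 (SE 0.31, adjusted p = 0.00187), the steps in which miR-27c-3p was called. Its level was far above that of miR-27c-3p, at 8852 ± 1761 TMM-scaled CPM in the blastocyst, 2861 ± 967 in gastrulation libraries, 1823 ± 69.0 during organ formation and 5954 ± 1380 around hatching (SD over 3 libraries). miR-146a rose at hatching by 2.11 (adjusted p = 0.0143, edgeR), and its log2 fold change of −1.61 at gastrulation did not pass (adjusted p = 0.105).

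Lists of microRNAs known from vessels, cartilage and mesenchyme, muscle, brain and blood were read beside the members, by family number. Of all tested microRNAs, 18.3% rose from organ formation to hatching, and from cleavage to larva 31.1% rose and 29.9% fell, with a median log2 fold change of 0.15. The lists and the members are all named microRNAs, while 201 of the 328 tested were predicted ones. The median of the 127 named ones was 0.74 from cleavage to larva, the nearer background for the list medians. Of 9 tested vessel microRNAs, 2 rose from organ formation to hatching, miR-126-3p and miR-218b, and from cleavage to larva 6 rose and 1, miR-130a, fell, with a median log2 fold change of 1.402. The count at hatching was thus near the share of all tested microRNAs. The most abundant of them, miR-222, rose by 2.74 from cleavage to larva (adjusted p = 0.000523, edgeR), and miR-126-3p by 1.78 (adjusted p = 0.0125). Of 7 cartilage and mesenchyme microRNAs, 2 rose at hatching, miR-140-3p and miR-199-5p, again a count near the share of all tested, and 4 rose from cleavage to larva (median 2.60). In that list miR-199-5p rose by 3.20 from cleavage to larva (adjusted p = 0.00153), while miR-143, of smooth muscle, had −0.79 (adjusted p = 0.345). No member of families 23, 24 and 27 was called higher from cleavage to larva. The log2 fold change of miR-27d was 0.74 (adjusted p = 0.196, edgeR), equal to the median of the named microRNAs tested. It ran from 0.21 to 2.16 over 30 alternatives, of which 1 passed.

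All 5 muscle microRNAs and 5 of 6 tested brain microRNAs rose from cleavage to larva, with medians of 5.003 and 2.78, led by miR-206 (6.31, adjusted p = 0.000121, edgeR) and miR-1 (4.65, 0.000120) of muscle and by miR-9-5p (5.86, 0.000179) and miR-9-3p (5.40, 0.000226) of neural progenitors. Of the 2 tested blood microRNAs, miR-142-5p fell by 5.14 (adjusted p = 0.000288), and miR-144, of red cells, had 0.29 (adjusted p = 0.729). From cleavage to blastocyst, 1 of 5 muscle and 2 of 6 tested brain microRNAs rose, against 6.10% of all tested. They were miR-206 (3.57, adjusted p = 0.0130, edgeR), miR-9-5p (3.59, 0.0131) and miR-9-3p (3.07, 0.0240). The muscle list summed to 297 to 856 TMM-scaled CPM at cleavage and 32156 to 35184 in the larva. It was uneven in between, at 531, 5494 and 8424 in blastocyst libraries and 4056, 8639 and 4705 in gastrulation libraries. The highest of these came from the libraries left out together in a setting below. The cause was not tested.

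Some libraries stood apart within their stage. miR-23a, miR-23b, miR-24, miR-27a and miR-27d were all highest in the first cleavage, the second blastocyst and the third gastrulation library, and miR-27c-3p was lowest in the first cleavage and second blastocyst libraries. The cartilage and mesenchyme list, 7 microRNAs of which at most 1 was at 0 in any stage's libraries (miR-140-5p at cleavage, miR-214 at blastocyst), was highest in the same libraries. It summed to 54218 TMM-scaled CPM in the first cleavage library against 17481 and 24024 in the others, to 47762 in the second blastocyst library against 12584 and 28285, and to 69107 in the third gastrulation library against 29018 and 32328. In the later stages the list ran from 12399 to 29843 in organ formation libraries, from 65504 to 111676 in hatching libraries and from 93242 to 103514 in larva libraries. Most of this sum came from 2 of the list's microRNAs, miR-199-5p and miR-143. Their means over the 18 libraries were 33336 and 12856 TMM-scaled CPM. The peaks of the sum therefore need not hold for the rest of the list. No other list peaked in the same libraries at all of cleavage, blastocyst and gastrulation. The vessel list was highest in cleavage library 1 (3520 TMM-scaled CPM), blastocyst library 3 (4439) and gastrulation library 3 (5337). Blood peaked in cleavage library 1 (683), blastocyst library 2 (373) and gastrulation library 2 (400). Muscle and brain peaked in blastocyst library 3 (8424 and 16983) and gastrulation library 2 (8639 and 13074). At cleavage they peaked in libraries 2 (856) and 3 (5032), respectively. The part of these differences in the members' levels was not tested. The third larva library, the deepest, was the highest of its stage for miR-23a, miR-24, miR-27a and miR-23b and the lowest for miR-27d and miR-27c-3p.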

How the data were processed

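Small RNA counts from 18 carp libraries, 3 for each of 6 stages as labelled, were analysed. TRIzol extraction, pooling of RNA by stage, adapter ligation and amplification came before sequencing, per the labels' protocols. For each library the authors deposited whole-number counts of mature microRNAs, not normalized. The authors also deposited TPM values, which were proportional to the counts within a library and were used only for the library totals they imply, 2.13% to 50.8% above the listed counts. The tools named per the submitters' processing notes are FastQC and edgeR. Sources used here do not give the aligner, genome build or prediction program. A predicted microRNA is listed in a library only if it has at least 5 counts there and was otherwise set to 0. In all, 2 named microRNAs were 0 everywhere.

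After a filterByExpr filter by stage (minimum count of 10), TMM-scaled counts of the 18 libraries were fitted together, each stage with its own mean, in edgeR 4.0.16 (glmQLFit robust, glmQLFTest, R 4.3.3, limma 3.58.1), with Benjamini-Hochberg adjustment over the 328 microRNAs tested in each comparison. The common biological coefficient of variation was 0.855, on 12 residual degrees of freedom. Ratios had 0.5 added to both counts and were tested by permuting stage labels, 1-sided in F. DESeq2 1.42.0 was an alternative, and the closing section gives the effect of the others. Python 3.11.15, numpy 2.4.6, scipy 1.17.1 and matplotlib 3.10.9 were used, and the fit was tested on simulated counts. The labels do not say whether a stage's 3 libraries come from separate spawnings. The p-values therefore measure only the spread between libraries, which may be technical.

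Every member is named, with the 3 named microRNAs most like each tested member and the 2 most abundant of each list; other microRNAs of the lists are named because they passed, a choice made after their values were seen. The members and lists were chosen with earlier results of these data known. A comparison of predicted microRNAs with the members' seeds was not run, because the members' sequences were not in the sources used here.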

Additional observations from a re-analysis of the deposited data

How the results depend on the processing

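Each fold change was recomputed under 12 other settings and with each of the 18 libraries left out; no called fold change changed sign. The fall of miR-27c-3p at gastrulation passed in all 18 omissions (−2.13 to −1.81) and in 8 of 12 other settings (−2.48 to −1.18, adjusted p up to 0.646), and its rise at hatching in 18 omissions (1.17 to 2.06) and 9 of 12 settings (0.87 to 2.40). From cleavage to larva, miR-23a passed in 17 of 18 omissions and 7 of 12 settings, miR-24 in 9 and 5, and miR-27a in 15 and 6. The cause was not tested for any of these changes.

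Members called at blastocyst against cleavage numbered 6, all lower, with either library total, where 98 and 90 of all 328 tested were called lower. At gastrulation none was called with either library total, without a filter or with the 2 stages alone. Of all tested, 7 and 6 of 328, 4 of 2886 and 7 of 180 were then called lower, in that order. At hatching none was called with RLE or without a filter, 2 with unlisted predicted microRNAs counted as 4 (miR-27c-3p and miR-27d) or with DESeq2 (miR-27c-3p higher, miR-27a lower), and 3 with the 2 stages alone; with named microRNAs only the 1 call was miR-27a, lower. In larva against hatching 2 were called with the 2 stages alone. In larva against cleavage 4 were called, miR-27c-3p added to the 3, with RLE, named microRNAs only, at least 10 CPM in 3 libraries, DESeq2 or without blastocyst libraries 2 and 3 and gastrulation library 2 together, 1 with singleton pairing, 0 with either library total, without a filter or with the 2 stages alone, and 0 to 4 with a library left out; with unlisted predicted microRNAs counted as 4 the 2 calls were miR-23b and miR-27d, higher. In the test of any stage 0 passed without a filter, and 6 with library totals. With unlisted predicted microRNAs counted as 4, the members that passed the test of any stage were miR-23b, miR-27a, miR-27c-3p and miR-27d, against 291 of all 328. miR-23a and miR-24 were thus lost. With the replicate number as a block 3 passed, miR-23a, miR-27a and miR-27c-3p, against 224 of all 328.

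The settings tested unlike numbers of microRNAs, 328 in the main fit but 127 with named ones only and 2886 without a filter. At least 10 CPM in 3 libraries left 460, and the 2 stages alone 171 to 612. A lower count in those settings is therefore not a lower share. Of all tested microRNAs, the number called at blastocyst went from 25 to 110 and 102 with library totals, 16 with named ones only, 10 with the 2 stages alone, 49 with DESeq2 and 12 without blastocyst libraries 2 and 3 and gastrulation library 2 together, and was 10 to 37 over single omissions (10 without the first cleavage library). At gastrulation it went from 23 to 14 with the TPM totals, 7 named, 37 with unlisted as 4, 6 without a filter, 11 with the 2 stages alone and 43 with DESeq2 (omissions 14 to 24, 14 without the first blastocyst library). At organ formation it went from 20 to 47 and 56 with library totals, 35 unlisted as 4, 4 unfiltered, 32 with the 2 stages alone and 63 with DESeq2 (omissions 9 to 34, lowest without the first organ formation library and highest without the first blastocyst library). At hatching it went from 89 to 38 named, 101 higher and 98 lower with unlisted as 4, 24 unfiltered and 155 with the 2 stages alone. In larva against hatching it went from 1 to 22 named, 38 unlisted as 4, 2 with at least 10 CPM in 3 libraries, 49 with the 2 stages alone, 29 with DESeq2 and 4 without those 3 libraries (omissions 1 to 5). For larva against cleavage it was 200 of 328 in the main fit, 85 of 127 named and 130 of 2886 unfiltered. Over any stage it was 247 of 328 in the main fit and 109 of 127 named.

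Of 45 pairs of libraries with the same replicate number, 6 correlated above 0.1 (−0.248 to 0.361), so the numbers were not taken to pair the libraries over the 6 stages. All 3 pairs were above 0.1 for cleavage and hatching (0.156, 0.137 and 0.361), which are not compared here, and for no other stages. With the replicate number as a block, 13 microRNAs were called at gastrulation and 2 in larva against hatching, 2 members passed in larva against cleavage (miR-23a and miR-27a), and all 6 ratios passed.

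The ratio of miR-23a to miR-24 did not pass without the 3 libraries named above (F = 2.79) or in the 12 earlier libraries (F = 3.46, chosen after seeing the data), and with single omissions F was 2.54 to 6.38; miR-27d to miR-24 did not pass in the 12 earlier libraries (F = 3.74). Without miR-430 and miR-738 in the total, the summed share of the first 4 stages averaged 3.31%, 1.51%, 2.12% and 1.77%.

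Of 36 fold changes, 17, none of them called, had a value of the other sign, none of which passed (lowest adjusted p 0.0753). With the TPM totals, organ formation against gastrulation turned to 0.11 for miR-23a, 1.42 for miR-23b, 0.12 for miR-24, 0.26 for miR-27a and 1.44 for miR-27c-3p, and with listed totals to 1.18 for miR-23b, 0.0224 for miR-27a and 1.22 for miR-27c-3p. With unlisted predicted microRNAs counted as 4, miR-23b had 0.20 and miR-27c-3p 0.12 in that step, miR-23a 0.25 at hatching and miR-27c-3p 0.60 in larva against cleavage. miR-23b had 0.0108 with the 2 stages alone at organ formation. At hatching it had −0.46 with RLE and with DESeq2, −0.63 named, −0.22 unfiltered, −0.26 with at least 10 CPM, −0.42 with the 2 stages alone and −0.32 without the 3 libraries. In larva against cleavage it had −0.0453 with RLE, −0.0516 with DESeq2, −0.28 named, −0.12 with at least 10 CPM and −0.36 without the 3 libraries. miR-27d had −0.14 named and −0.12 with at least 10 CPM at gastrulation, −0.000905 unfiltered at organ formation and −0.0304 named at hatching, and miR-27c-3p had 0.0104 unfiltered at blastocyst. Over single omissions miR-23b ran from −1.12 to 0.37 at blastocyst, −0.58 to 0.24 at organ formation, −0.32 to 0.58 at hatching, −0.0763 to 0.44 in larva against hatching and −0.36 to 0.96 in larva against cleavage. miR-23a ran from −0.31 to 1.16 at gastrulation and −0.89 to 0.23 at hatching, and miR-27d from −0.25 to 0.45 at gastrulation, −0.14 to 0.58 at organ formation and −0.00307 to 0.38 in larva against hatching.

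At 60779 counts a library holds few copies of the scarcer members, which limits what the organ formation libraries can show; intervals and floors cover counting error only.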
